A study of Gallus gallus with 24 samples.

Results

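The heat shock proteins, their co-chaperones and the chaperonins were followed across 2 skeletal muscles and 3 diets in Guangyuan Grey hens, a chicken breed. Members were the genes whose symbol begins with HSPA, HSPB, HSPD, HSPE, HSPH, DNAJA, DNAJB, DNAJC, a CCT subunit number or a BAG number, together with TCP1, and that reached 1 FPKM in at least 4 libraries. FPKM divides the fragments of a gene by its transcript length and by the library's mapped reads. The names took 65 genes, and 63 of them passed the level threshold, out of 10944 genes that passed it among 20780 in the table. The hens were 150 days old when 270 of them were divided over the diets and 210 days old when both muscles were taken, after 12 h without feed. Groups were SOL (soleus, a lower leg muscle of mixed oxidative and glycolytic fibres) and PEM (pectoralis major, the fast glycolytic breast muscle), each under CONT (the normal diet), SHFD (a high-fat diet for 15 days) or LHFD (a high-fat diet for 60 days). Each of the 6 groups held 4 libraries, 24 in all, and no group was a genetic model. The labels call the 4 libraries biological replicates without tying a number to a bird. The p-values set each difference against the spread between these samples. Both muscles came from the same hens, and the main fit did not pair them.

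Heat shock proteins are chaperones: they bind proteins that are unfolded and keep them from clumping until they can fold. HSP70 proteins do this in cycles of ATP use that J-domain proteins (DNAJ) start and that nucleotide exchange factors (HSP110 and BAG proteins) end, while small heat shock proteins (HSPB) hold clients without ATP and chaperonins enclose them in a ring. In striated muscle, where filaments are stretched and rebuilt under load, small heat shock proteins and the BAG3 and HSPB8 pair are known for guarding and clearing damaged sarcomere proteins. Many of these genes are induced through heat shock factor 1 when unfolded proteins build up.

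The depth behind the libraries is unknown, and their values summed to between 474667 and 525731 FPKM. The muscle labels fitted their defining markers: the summed level of 11 slow fibre genes was 16353 to 26129 FPKM in CONT SOL libraries and 45.9 to 79.3 FPKM in CONT PEM libraries, while the sum of 9 fast fibre genes was 14966 to 24864 FPKM in SOL and 50506 to 61188 FPKM in PEM. PEM library 2 of CONT stood apart, with a mean correlation of 0.943 to its own group, 10484 genes reaching 1 FPKM (its 3 group mates had 9285 to 9432) and a macrophage marker sum of 624 FPKM. SOL library 4 of SHFD had the lowest fast fibre sum in its group (4512 FPKM, with 19974 to 25135 FPKM in the other 3), and SOL library 1 of SHFD had the highest smooth muscle marker sum (1027 FPKM, with 251 to 532 FPKM in the others).

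Of the members, 58 were at 1 FPKM or more in every library. The small heat shock proteins were the most abundant on this length-scaled measure. Over all 24 libraries HSPB1 averaged 2603 FPKM, HSPB7 averaged 1063 FPKM and HSPB8 averaged 1005 FPKM. BAG3, the co-chaperone that links HSPB8 to HSP70, averaged 370 FPKM, close to the 361 FPKM of HSPA8, the constitutive HSP70. The J-domain genes of highest mean over both muscles were DNAJB2 at 150 FPKM and DNAJA1 at 131 FPKM, and the leading chaperonin subunit was CCT6A at 79.9 FPKM. The order differed by muscle. In SOL HSPB7 averaged 1891 FPKM over 12 libraries and HSPB8 844 FPKM, whereas in PEM HSPB7 averaged 234 FPKM and HSPB8 1167 FPKM. DNAJA4 led the J-domain genes in SOL at 170.4 FPKM, with DNAJB2 at 109 FPKM, and in PEM DNAJA4 averaged 34.9 FPKM and DNAJB2 190.1 FPKM. DNAJC2 had the highest mean of the DNAJC class, at 45.7 FPKM. HSPD1, the mitochondrial HSP60, averaged 85.3 FPKM, HSPH1 averaged 19.6 FPKM, and HSPBAP1, named for its binding to HSPB1, averaged 4.22 FPKM. Just inside the threshold were HSPA13, at 1 FPKM in 7 libraries with a highest value of 1.26 FPKM, HSPA12A in 10 libraries (all SOL) and HSPB11 in 15. HSPB11 carries a small heat shock protein name but is known in mammals as a part of intraflagellar transport. Just outside were DNAJB13, whose highest value was 0.529 FPKM, and DNAJC22, whose highest was 0.194 FPKM.

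The study asked how 2 muscles of unlike fibre type respond to high-fat feeding of different length, and the first comparison set SOL against PEM under the normal diet. The members' summed level was 6509 to 10386 FPKM in SOL and 4140 to 5345 FPKM in PEM, so the ranges did not overlap. Without HSPB1 and HSPB7, 61 members summed to 3008 to 3878 FPKM in SOL and 3262 to 3872 FPKM in PEM, ranges that overlapped. HSPB8, which was lower in SOL, is part of that sum. Without it too, 60 members summed to 2392 to 3216 FPKM in SOL and 2282 to 2400 FPKM in PEM. Those ranges overlapped narrowly, with means of 2783 FPKM in SOL and 2344 FPKM in PEM. Called genes are those with a limma adjusted p (Benjamini-Hochberg over 10944 genes) under 0.05. Of the 63 members 32 were called, 21 higher and 11 lower in SOL, which is 50.8% of members beside 50.7% of all genes tested. Higher calls made up 33.3% of members beside 30.7% of all genes, and lower calls 17.5% beside 20%. The members' median log2 fold change was 0.11, and that of all genes was 0.12. The members were thus called about as often as genes at large.

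**Figure D1:**
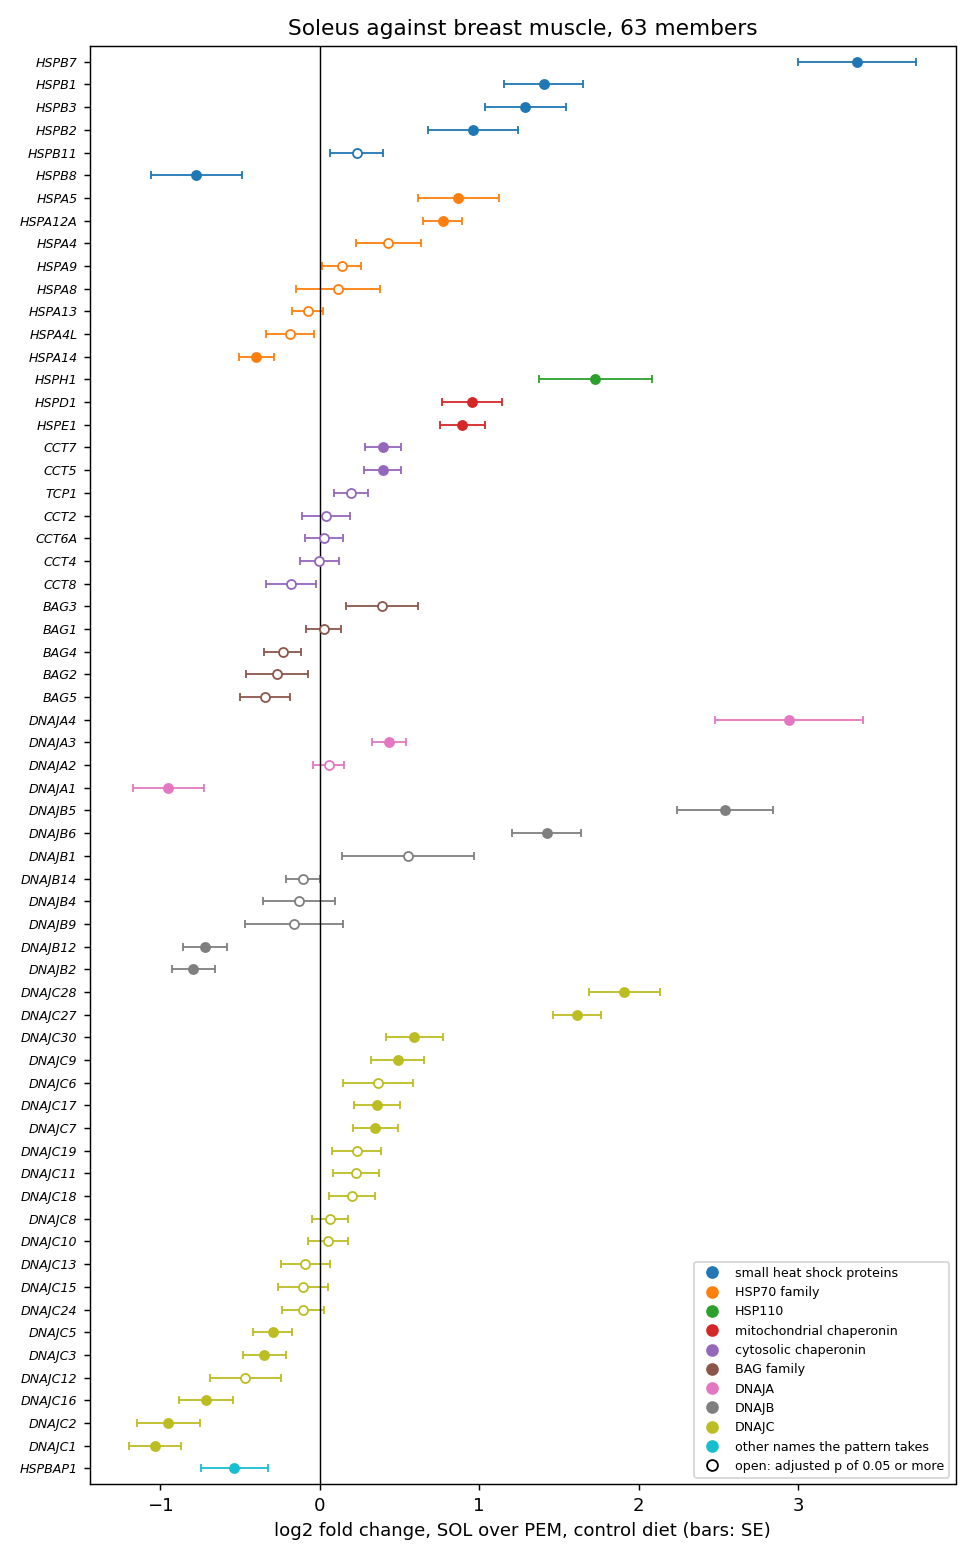
Log2 fold change of each member in SOL over PEM under the normal diet (x axis, bars are standard errors from limma), grouped by role down the y axis; filled points passed an adjusted p of 0.05. The largest rises are HSPB7 at 3.37, DNAJA4 at 2.94 and DNAJB5 at 2.54, and the largest fall is DNAJC1 at -1.03.

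Small heat shock proteins held the largest difference. HSPB7 (ENSGALG00000023772), a cardiac and skeletal muscle member that in mammals binds filamin C, measured 1319, 2022, 2400 and 1811 FPKM in the 4 SOL libraries and 255, 218, 161 and 111 FPKM in the 4 PEM libraries. Every SOL library stood above every PEM library, and the SOL mean was 10.1 times the PEM mean. On the log2(FPKM + 1) scale the rise was 3.37 ± 0.37 (SE), with a limma adjusted p of 2.0e-07. HSPB1, known as HSP27 in humans, averaged 3227 ± 809 FPKM in SOL and 1239 ± 404 FPKM in PEM (SD, n = 4 each) and rose by 1.40 ± 0.25. HSPB3 rose by 1.29 and its partner HSPB2 by 0.96, a pair known to form one complex in mammalian muscle. Between muscles HSPB2 was called in all 3 diets and HSPB3 under CONT alone.

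HSPB8 went the other way. It measured 616, 711, 662 and 681 FPKM in SOL and 1472, 1030, 1210 and 924 FPKM in PEM. The SOL libraries lay close together below all PEM libraries, and HSPB8 fell by 0.77 ± 0.29 with a limma adjusted p of 0.0282. That call was lost in 7 of 17 other settings, with limma adjusted p of 0.0511 to 0.0901, the highest without PEM library 1. HSPB8 was not called between muscles within SHFD or LHFD. Within SHFD it averaged 1040 ± 441 FPKM in SOL and 1378 ± 672 FPKM in PEM. Within LHFD it averaged 824 ± 205 FPKM in SOL and 964 ± 147 FPKM in PEM. BAG3, which acts with HSPB8, was not called under CONT, at 347 ± 59.8 FPKM in SOL and 268 ± 68.1 FPKM in PEM. HSPB11 was not called in any of the 3 diets. In all, 4 of 6 HSPB genes rose and 1 fell, where 30.7% of all genes rose and 20% fell.

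**Figure D2:**
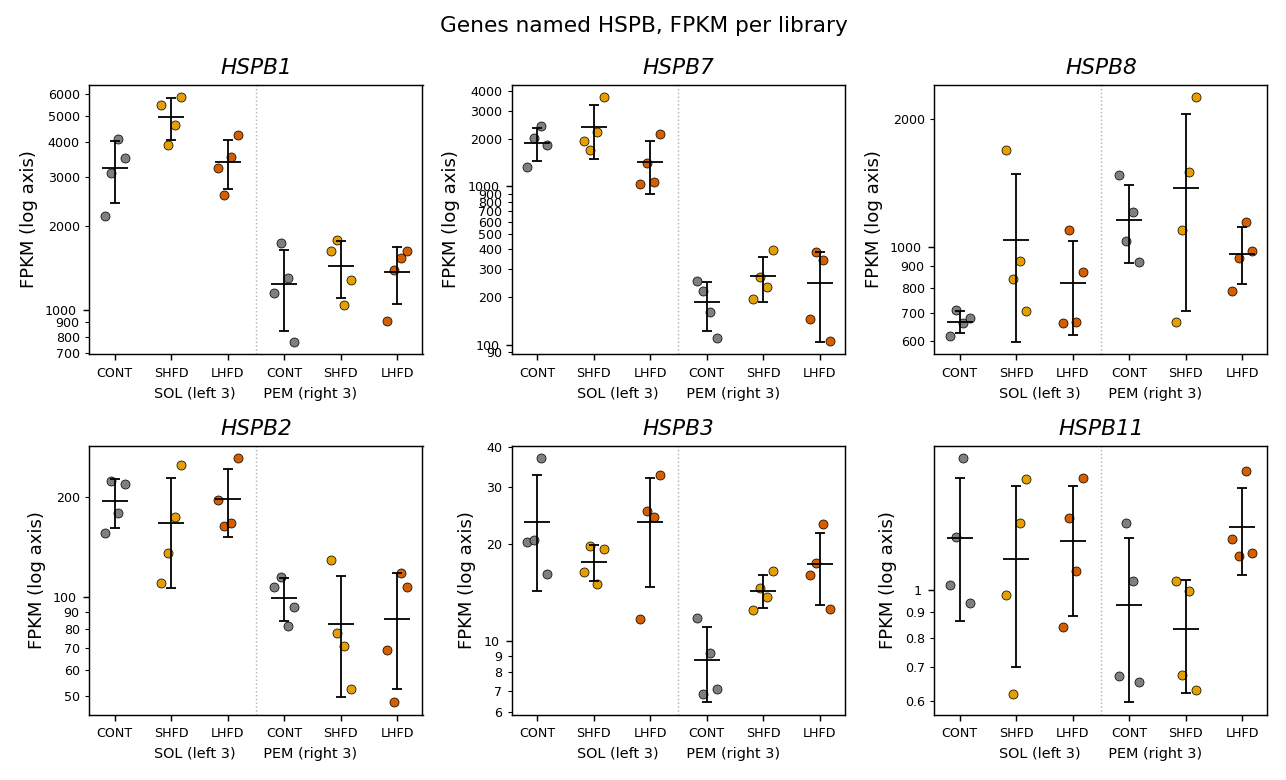
FPKM of the 6 HSPB genes in each library (points, log axis), by diet within SOL and then PEM, with the mean and SD of 4 libraries in black. HSPB7 lies at 1035 FPKM or more in every SOL library and at 396 FPKM or less in every PEM library, whereas HSPB8 lies lower in SOL under CONT.

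Among the HSP70 partners, J-domain genes gave both directions. Of 33 such genes 18 were called, 10 higher and 8 lower. Among all genes 50.7% were called, 30.7% higher and 20% lower. DNAJA4 (ENSGALG00000036850), a class A J-domain protein that serves HSP70, measured 69.7, 129, 172 and 75.6 FPKM in SOL and 9.96, 11.8, 10.5 and 20.7 FPKM in PEM. The groups did not overlap, with a rise of 2.94 ± 0.46 and a limma adjusted p of 2.27e-05. DNAJB5 (ENSGALG00000001918), a class B member, measured 26.2, 36.1, 57.5 and 38.7 FPKM in SOL and 6.41, 5.40, 3.50 and 8.50 FPKM in PEM. Its lowest SOL library was above its highest PEM library, and it rose by 2.54 ± 0.30. DNAJC28 (ENSGALG00000037414) measured 14.8, 16.3, 14.1 and 18.2 FPKM in SOL and 3.67, 3.92, 3.11 and 3.23 FPKM in PEM, again without overlap, and rose by 1.91 ± 0.22. DNAJC27, a small GTPase of the RAB type with a J domain attached, rose by 1.61. DNAJB6, which suppresses protein aggregation and is mutated in a human limb girdle muscular dystrophy, rose by 1.42 to 98.7 ± 36.5 FPKM in SOL, against 34.8 ± 3.41 FPKM in PEM.

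Of the 8 J-domain genes that were lower in SOL, 4 act at the endoplasmic reticulum (DNAJB12, DNAJC1, DNAJC3 and DNAJC16). DNAJC1 (ENSGALG00000007914), a J-domain protein of the endoplasmic reticulum membrane, measured 19.2, 17.0, 12.5 and 16.2 FPKM in SOL and 31.8, 32.6, 34.1 and 37.2 FPKM in PEM. Every PEM library was higher, and in SOL DNAJC1 fell by 1.03 ± 0.16 (limma adjusted p of 2.23e-05). DNAJC2, which with HSPA14 forms the ribosome-associated complex of mammals, measured 27.9, 19.2, 27.8 and 23.1 FPKM in SOL and 26.2, 51.5, 61.0 and 62.6 FPKM in PEM. PEM library 1 fell among the SOL values, so the groups overlapped, and DNAJC2 fell by 0.95 ± 0.20. HSPA14 fell by 0.40. DNAJA1, a main class A partner of HSPA8, measured 46.8, 74.0, 89.4 and 69.6 FPKM in SOL and 118, 154, 110 and 155 FPKM in PEM. All SOL values were below all PEM values, and DNAJA1 fell by 0.95 ± 0.22. DNAJB2, which in mammals sorts ubiquitinated clients for degradation, measured 113, 109, 97.4 and 101 FPKM in SOL and 191, 164, 200 and 177 FPKM in PEM. These did not overlap either, and DNAJB2 fell by 0.79 ± 0.14. The log2 fold change was -0.72 for DNAJB12, -0.71 for DNAJC16, -0.54 for HSPBAP1 and -0.35 for DNAJC3, all called lower. The calls of DNAJC3 and HSPBAP1 were lost in 6 and 7 of 17 other settings, with limma adjusted p of up to 0.198 for DNAJC3 and 0.140 for HSPBAP1.

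HSPH1 (ENSGALG00000017077), an HSP110-type nucleotide exchange factor also called HSP105, measured 11.3, 16.3, 19.0 and 22.0 FPKM in SOL and 4.17, 6.32, 3.52 and 3.75 FPKM in PEM. The groups did not overlap, and HSPH1 rose by 1.73 ± 0.35 with a limma adjusted p of 0.000358. By compartment, 5 of 9 mitochondrial members rose in SOL and none fell, with a median log2 fold change of 0.44, where 30.7% of all genes rose and 20% fell. HSPD1, the mitochondrial HSP60, averaged 107 ± 21.6 FPKM in SOL and 54.2 ± 4.68 FPKM in PEM (log2 fold change 0.96). HSPE1, its HSP10 lid, averaged 37.3 ± 5.83 FPKM in SOL and 19.8 ± 4.60 FPKM in PEM (log2 fold change 0.89). Of 10 members of the endoplasmic reticulum 1 rose and 4 fell. The 1 that rose was HSPA5, the reticulum's HSP70 (BiP), at 86.1 ± 16.6 FPKM in SOL and 48.0 ± 17.0 FPKM in PEM. Of 7 cytosolic chaperonin subunits, which fold actin and tubulin, only CCT5 (0.39) and CCT7 (0.40) were called, and no BAG gene was.

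Markers of other cell types differed as well. Under CONT all 8 endothelial markers tested, 9 of 9 smooth muscle and pericyte markers and 5 of 6 adipocyte markers were higher in SOL, while of 8 satellite cell markers 5 were higher and 1 lower. Among all genes 30.7% were called higher and 20% lower. The other marker sums overlapped between the muscles. They were 101 to 151 FPKM in SOL and 50.3 to 197 FPKM in PEM for fibroblasts, and 326 to 428 and 116 to 624 FPKM for macrophages. For lymphocytes they were 55.9 to 93.6 and 31.3 to 445 FPKM, and for red blood cells 108 to 324 and 62.2 to 175 FPKM. The fibroblast, macrophage and lymphocyte overlaps came from PEM library 2 alone, the library that stood apart. The remaining PEM libraries lay below every SOL library. They summed to 50.3 to 93.3 FPKM for fibroblasts, 116 to 148 FPKM for macrophages and 31.3 to 47.6 FPKM for lymphocytes. The smooth muscle sum was 215 to 257 FPKM in SOL and 48.2 to 83.1 FPKM in PEM. The part of these cell types in the muscle differences was not tested, and in whole tissue fewer cells of a type and less RNA per cell cannot be told apart.

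The comparison was repeated under the other diets, with libraries of their own. Within SHFD 31 members were called, 19 higher and 12 lower (49.2% of members beside 51.6% of all genes, of which 26.5% higher and 25.1% lower). Within LHFD 26 were called, 18 higher and 8 lower (41.3% beside 43.8%, of which 28.9% higher and 14.9% lower). In all 3 diets 15 members were called higher and 7 lower, and no member was called in opposite directions. Calls shared by all 3 diets were not counted over all genes, so these numbers have no share beside them. One of the 15, HSPA12A, passed the level threshold through SOL alone, and without it 14 were higher in all 3 diets and 20 of 62 under CONT. The 15 included HSPB1, HSPB2, HSPB7, HSPD1, HSPE1, HSPH1, DNAJB5, DNAJB6, DNAJC27 and DNAJC28. The 7 were DNAJA1, DNAJB2, DNAJB12, DNAJC1, DNAJC2, DNAJC16 and HSPBAP1. Some calls appeared within a high-fat diet without one under CONT, which by itself is not a shown difference between diets. Within SHFD BAG3 was higher in SOL by 1.01 (628 ± 169 FPKM in SOL and 307 ± 55.5 FPKM in PEM) and HSPA4 by 0.98. BAG3 was also called within LHFD, higher in SOL by 0.76 (limma adjusted p of 0.0101), a call lost in 1 of 17 other settings. Within LHFD DNAJB4 fell by 0.65 in SOL relative to PEM, at 67.4 ± 13.9 FPKM in SOL and 107 ± 25.9 FPKM in PEM, and DNAJA4 was not called, at 113 ± 39.9 FPKM in SOL and 54.6 ± 29.5 FPKM in PEM. Of the LHFD calls, those of DNAJB12 and HSPBAP1 were each lost in 9 of 17 other settings and that of DNAJB4 in 7, leaving out most single LHFD libraries among them. The LHFD call of HSPH1 was lost without PEM library 1 of LHFD (limma adjusted p of 0.0594). The scaling moved the balance of the calls. Of the member calls under CONT 65.6% were higher in SOL, and all genes had a median of 0.12. With quantile-normalized values that share was 54.3% and the median of all genes -0.05. With libraries set to the same nuclear-encoded sum the share was 76.7% and the median 0.23.

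In SOL, 3 members rose after 15 days of high-fat diet, the HSP110-type genes HSPA4 and HSPH1 and the J-domain gene DNAJB4, and none fell. Those 3 are 4.76% of members, beside 0.557% of all genes called in either direction (0.164% called higher and 0.393% called lower). The members' median log2 fold change was 0.02, and that of all genes was -0.12. HSPA4 (ENSGALG00000040882), an HSP110-type exchange factor despite its HSP70 symbol, measured 161, 115, 221 and 142 FPKM in SHFD and 50.6, 66.7, 87.1 and 67.6 FPKM in CONT. The lowest SHFD library was above the highest CONT library, and the mean was 2.35 times as high. The rise was 1.21 ± 0.20 with a limma adjusted p of 0.0109.

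DNAJB4 (ENSGALG00000008916), a class B J-domain partner of HSP70, measured 151, 112, 81.4 and 86.3 FPKM in SHFD SOL and 53.1, 39.4, 66.2 and 39.9 FPKM in CONT SOL. All 4 SHFD values lay above all CONT values, a rise of 1.09 ± 0.22 (limma adjusted p of 0.034). HSPH1 measured 85.7, 31.4, 55.7 and 44.0 FPKM in SHFD SOL and 11.3, 16.3, 19.0 and 22.0 FPKM in CONT SOL. SHFD library 1 was the highest and no SHFD library fell within the CONT range, a rise of 1.55 ± 0.35 (limma adjusted p of 0.0484). By role, no BAG gene was called (3 positive and 2 negative log2 differences) and neither was any of the 4 DNAJA genes (2 positive and 2 negative). The largest uncalled differences in these roles were those of BAG3, BAG2 and DNAJA4. BAG3 averaged 628 ± 169 FPKM in SHFD and 347 ± 59.8 FPKM in CONT (log2 difference 0.84, limma adjusted p of 0.0758). BAG2, a BAG protein that restrains the ubiquitin ligase CHIP, averaged 126 ± 32.1 FPKM in SHFD and 70.0 ± 18.4 FPKM in CONT (0.83, limma adjusted p of 0.0527). DNAJA4 measured 582, 185, 195 and 185 FPKM in SHFD and 69.7, 129, 172 and 75.6 FPKM in CONT. These ranges did not overlap, and SHFD library 1 stood far above the other 3 (log2 difference 1.26, limma adjusted p of 0.177).

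The smooth muscle marker sum was 1027, 251, 532 and 330 FPKM in SHFD SOL libraries 1 to 4 and 215 to 257 FPKM in CONT SOL. Of the 3 called members HSPH1 had the same order over the 4 SHFD libraries. HSPA4 differed from that order only in that library 3 stood above library 1. DNAJB4 was highest in library 1 and lowest in library 3. The part of smooth muscle in these rises was not tested. All 3 kept their direction in the 16 other settings, at 1.04 to 1.35 for HSPA4, 0.91 to 1.24 for DNAJB4 and 1.3 to 1.77 for HSPH1 on the log2 scale, but the adjusted p of the calls moved across the threshold. HSPA4 was called in 14 of these settings, DNAJB4 in 8 and HSPH1 in 6. Without SHFD library 1, the library with the high smooth muscle sum, HSPA4 alone was called and the limma adjusted p was 0.161 for DNAJB4 and 0.186 for HSPH1. Without SHFD library 3 no member was called, without SHFD library 4 there were 5 calls, leaving out CONT library 1, 2 or 4 left 1 call each, and with only the compared groups in the fit there was none. Calls among all genes also moved, from 3 to 205 over the omissions of a single library.

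**Figure D3:**
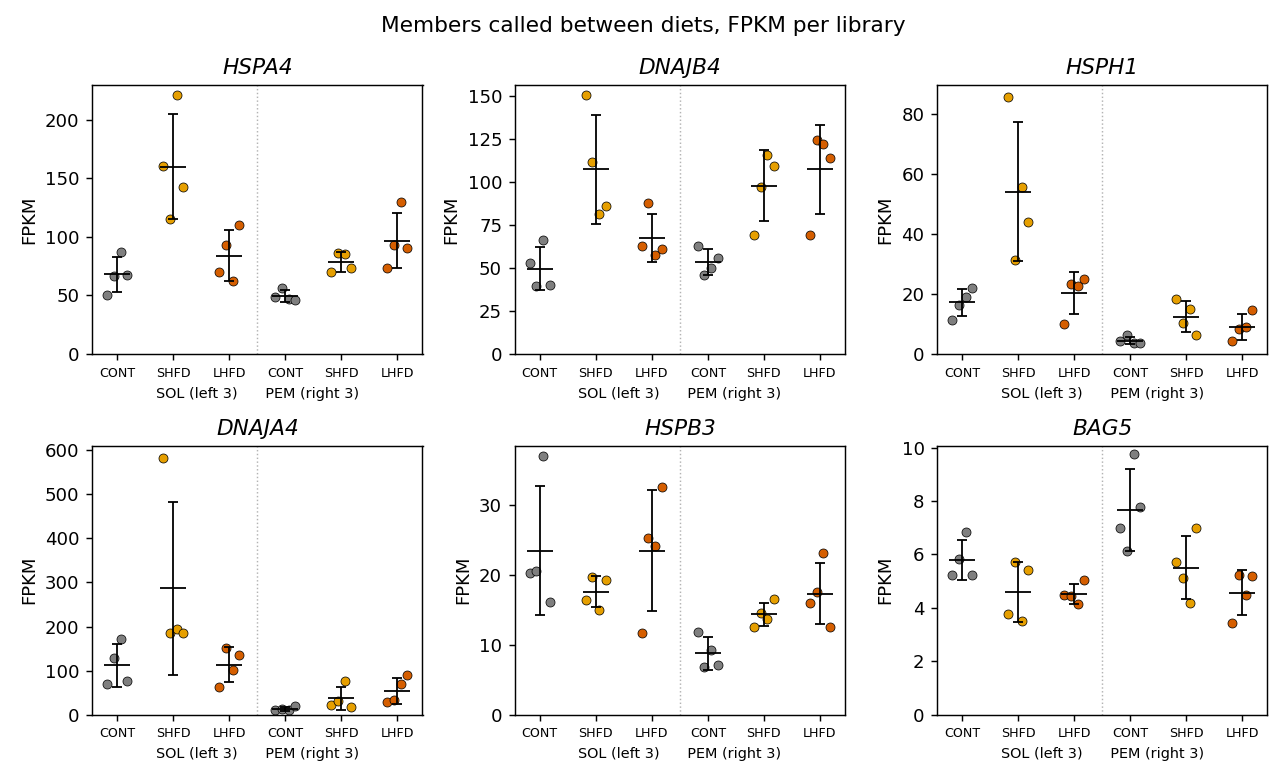
FPKM in each library (points) of the 6 members called between diets, with the mean and SD of 4 libraries in black, by diet within SOL on the left and PEM on the right of the dotted line. HSPA4, DNAJB4 and HSPH1 are highest in SHFD within SOL, and HSPA4, DNAJB4, DNAJA4 and HSPB3 are higher in LHFD than in CONT within PEM while BAG5 is lower.

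After 60 days no member was called between LHFD and CONT in SOL by limma, where 0.521% of all genes were (0.228% higher and 0.292% lower), and 4 members (6.35%) had an unadjusted p under 0.05, beside 12.0% of all genes. The smallest p belonged to HSPA4L, the sister gene of HSPA4, at 8.53 ± 0.83 FPKM in LHFD and 6.37 ± 1.09 FPKM in CONT (log2 difference 0.38, limma adjusted p of 0.294). DNAJC3, a co-chaperone of the unfolded protein response, followed at 0.31 and DNAJC12 at 0.49. HSPA4 averaged 83.9 ± 21.6 FPKM in LHFD SOL, HSPH1 20.3 ± 6.91 FPKM and DNAJA4 113 ± 39.9 FPKM, and in CONT SOL HSPH1 averaged 17.2 ± 4.52 FPKM and DNAJA4 112 ± 48.3 FPKM.

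The 2 high-fat groups in SOL differed in 1 member, which is 1.59% of members beside 0.886% of all genes (0.621% higher and 0.265% lower). HSPA4 measured 70.0, 93.1, 62.7 and 110 FPKM in LHFD and 161, 115, 221 and 142 FPKM in SHFD. Every LHFD library was below every SHFD library, and HSPA4 fell by 0.92 ± 0.20 in LHFD relative to SHFD (limma adjusted p of 0.0332). HSPH1 did not overlap either, at 20.3 ± 6.91 FPKM in LHFD and 54.2 ± 23.2 FPKM in SHFD (log2 difference -1.36, limma adjusted p of 0.0697). All 7 chaperonin subunits and all 5 BAG genes had negative log2 differences here, with none called. Those of BAG4 (-0.00856) and BAG5 (-6.27e-04) were very small. The 21 DNAJC genes leaned the other way, with 17 positive and 4 negative, also without a call. The median of all genes was 0.07. The HSPA4 call was absent without LHFD library 1 or 3, or SHFD library 1 or 3, and there were 3 calls without SHFD library 2. This contrast and the one with CONT share the SHFD libraries.

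In PEM, 15 days of high-fat diet gave no call among members by limma, where 1.07% of all genes were called (0.539% higher and 0.53% lower), although 15 members (23.8%) had an unadjusted p under 0.05, beside 13.2% of all genes. The members' median log2 difference was 0.13 and that of all genes was -0.02, and 45 of 63 members had a positive difference. The smallest p belonged to DNAJB4, at 69.5, 97.0, 116 and 109 FPKM in SHFD and 62.8, 45.7, 49.9 and 55.8 FPKM in CONT. These did not overlap (log2 difference 0.84, limma adjusted p of 0.0698). HSPH1 averaged 12.4 ± 5.19 FPKM in SHFD and 4.44 ± 1.28 FPKM in CONT (1.24, limma adjusted p of 0.0896). DNAJC2 averaged 75.7 ± 4.71 FPKM in SHFD and 50.3 ± 16.8 FPKM in CONT (0.65, limma adjusted p of 0.11), and HSPA4 averaged 78.9 ± 8.58 FPKM in SHFD and 49.5 ± 4.87 FPKM in CONT. HSPH1 alone was called when PEM library 4 of SHFD was left out (limma adjusted p of 0.0485). It was also called without CONT library 2 and LHFD library 1 together (limma adjusted p of 0.0478).

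After 60 days in PEM, 4 members rose and 1 fell. Those 5 are 7.94% of members beside 6.94% of all genes, with 6.35% of members higher beside 2.05% of all genes, and 1.59% lower beside 4.9%. HSPA4 measured 73.8, 92.9, 130 and 90.7 FPKM in LHFD and 48.4, 56.6, 46.7 and 46.2 FPKM in CONT. The groups were apart, and HSPA4 rose by 0.93 ± 0.20 (limma adjusted p of 0.00826). DNAJB4 measured 69.1, 124, 122 and 114 FPKM in LHFD and 62.8, 45.7, 49.9 and 55.8 FPKM in CONT. LHFD library 1 was the lowest of its group yet above all CONT libraries, and the rise was 0.96 ± 0.22 (limma adjusted p of 0.0119).

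DNAJA4 measured 27.6, 32.6, 68.9 and 89.3 FPKM in LHFD PEM and 9.96, 11.8, 10.5 and 20.7 FPKM in CONT PEM. LHFD was higher throughout, with means 4.12 times apart and a wide spread within LHFD, a rise of 1.86 ± 0.46 (limma adjusted p of 0.0178). HSPB3 (ENSGALG00000047764), a small heat shock protein of muscle, measured 16.0, 17.5, 23.0 and 12.6 FPKM in LHFD and 11.8, 6.85, 9.19 and 7.11 FPKM in CONT. The lowest LHFD library lay just above the highest CONT library, and HSPB3 rose by 0.91 ± 0.26 (limma adjusted p of 0.034). BAG5 (ENSGALG00000031062), a BAG protein that promotes nucleotide release from HSP70, was the member that fell. It measured 3.42, 5.21, 4.46 and 5.18 FPKM in LHFD and 7.00, 6.12, 9.75 and 7.77 FPKM in CONT. Every LHFD library was lower, and BAG5 fell by 0.63 ± 0.16 (limma adjusted p of 0.0177). HSPA8 averaged 464 ± 183 FPKM in LHFD and 257 ± 58.1 FPKM in CONT without a call (0.79, limma adjusted p of 0.0728). The satellite cell marker sum was 65.3 to 134 FPKM in LHFD PEM and 157 to 193 FPKM in CONT PEM, and 1 satellite cell and 1 lymphocyte marker were called lower. Their part in these changes was not tested, and no other marker of another cell type was called between diets.

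All 5 kept their direction in the 16 other settings, with log2 fold changes of 0.78 to 1.11 for HSPA4, 0.88 to 1.16 for DNAJB4, 1.57 to 2.12 for DNAJA4, 0.76 to 1.05 for HSPB3 and -0.73 to -0.51 for BAG5. Numbers of calls moved more, since several lay near the threshold: 2 were left without CONT library 3, 3 without LHFD library 3, and none with only the LHFD and CONT groups of PEM in the fit, where the fold changes are the same. LHFD library 1 had the highest macrophage (383 FPKM, with 114 to 160 FPKM in the other 3), lymphocyte (188 FPKM, with 37.7 to 41.8 FPKM) and fibroblast (280.2 FPKM, with 50.1 to 129 FPKM) marker sums of its group. Without it HSPA4 (1.05), DNAJB4 (1.16) and DNAJA4 (2.12) were called, while HSPB3 (0.93, limma adjusted p of 0.0532) and BAG5 (-0.53, limma adjusted p of 0.0595) were not. The call of HSPB3 was lost in 9 of 16 other settings (limma adjusted p of up to 0.105) and that of DNAJA4 in 5 (up to 0.0802). That of BAG5 was lost in 4 (0.0554 to 0.113). LHFD against SHFD in PEM gave no member call, with 0.201% of all genes called by limma (0.119% higher and 0.0822% lower) and 8 members (12.7%) at an unadjusted p under 0.05, beside 11.2% of all genes. The smallest p there were those of DNAJC15 (log2 difference -0.50), DNAJB1, the heat-inducible HSP40 (1.29), and CCT2 (-0.39). DNAJB1 measured 15.4, 16.3, 29.0 and 67.4 FPKM in LHFD and 8.96, 11.4, 15.5 and 6.93 FPKM in SHFD, and LHFD library 4 was far above the rest.

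**Figure D4:**
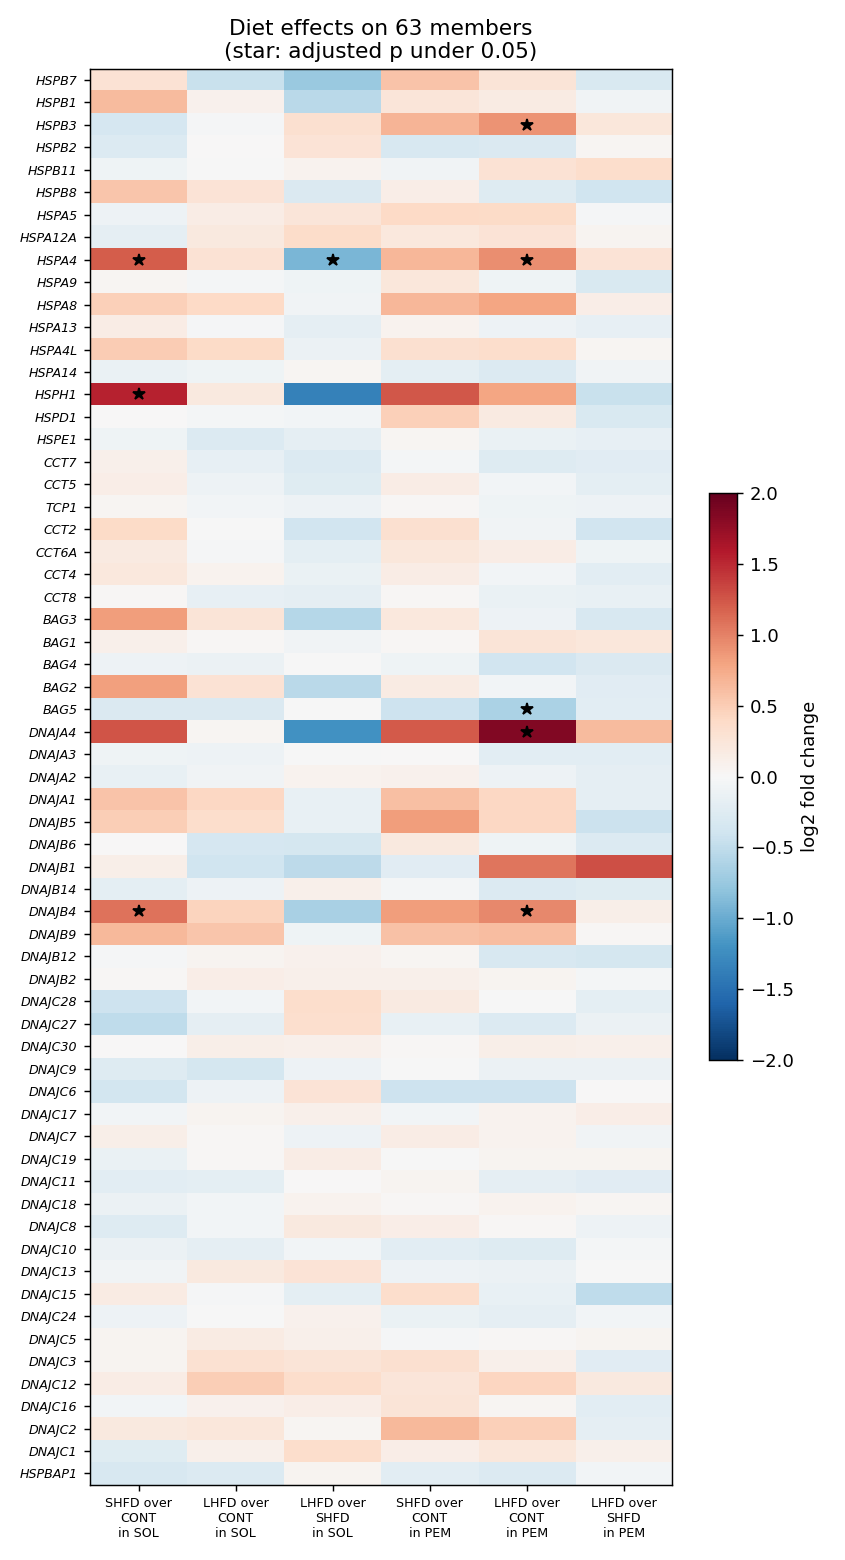
Log2 fold changes of the 63 members (rows, by role) in the 3 diet comparisons of SOL and then of PEM (columns), red for higher and blue for lower, with stars at an adjusted p under 0.05. Stars mark HSPA4 in 3 columns, DNAJB4 in 2, and HSPH1, DNAJA4, HSPB3 and BAG5 in 1 each.

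Whether a diet acted differently in the 2 muscles was tested as the difference of its effects. No member was called for SHFD, where 0.00914% of all genes were, or for LHFD, where 0% were, and 4 members (6.35%) had an unadjusted p under 0.05 in each, beside 6.41% of all genes for SHFD and 5.67% for LHFD. For SHFD the smallest p was that of HSPB3, whose log2 effect was -0.34 in SOL and 0.67 in PEM (difference -1.01, 95% interval -1.77 to -0.25, limma adjusted p of 0.594), followed by DNAJC8 (-0.38) and BAG2 (0.66). For LHFD they were DNAJA4, with an effect of 0.04 in SOL and 1.86 in PEM (difference -1.82, 95% interval -3.20 to -0.44, limma adjusted p of 0.684), HSPB3 (-0.92) and DNAJB1 (-1.47). A call in one muscle and none in the other is therefore not a shown difference between muscles. Nor is a muscle difference called under only CONT or only a high-fat diet a shown effect of diet on it.

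Set side by side, the SHFD effects of the 63 members in SOL and PEM had the same sign for 47 members (74.6%), 32 higher and 15 lower in both, beside 63.4% of all genes. Pearson's r across members was 0.74 and Spearman's rho 0.64, beside an r of 0.47 and a rho of 0.43 across all genes. For LHFD 48 members (76.2%) had the same sign beside 69.9% of all genes, with an r of 0.40 across members and 0.49 across all genes. The LHFD rho was in the other order, at 0.56 across members and 0.48 across all genes. No library is shared between the muscles, but both came from the same hens and genes are not independent replicates, so these are descriptions. HSPH1 and DNAJA4 lay farthest out in SHFD. HSPH1 stood at 1.55 in SOL and 1.24 in PEM, and DNAJA4 at 1.26 in SOL and 1.23 in PEM.

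**Figure D5:**
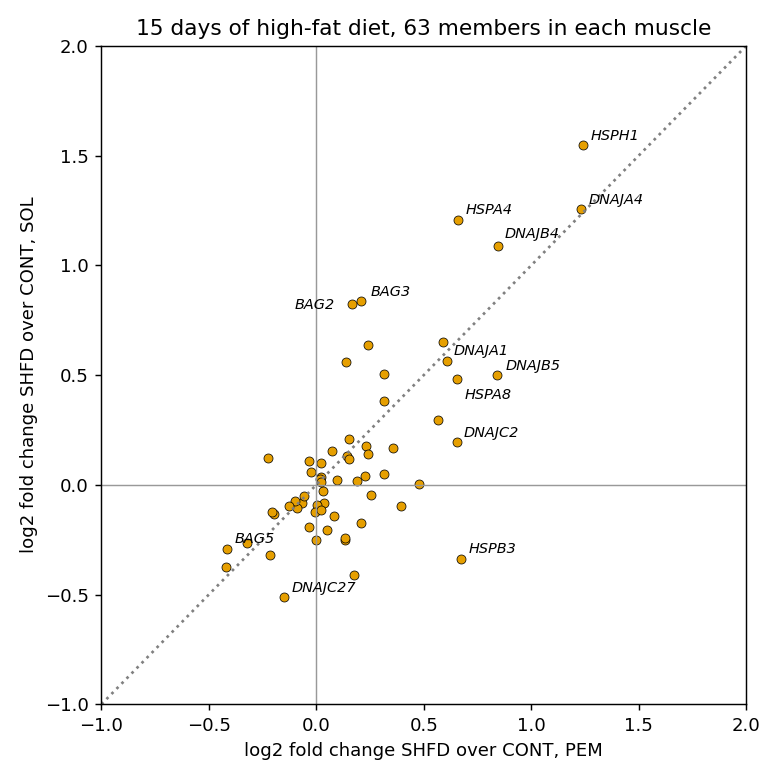
Log2 fold change of SHFD over CONT for each of the 63 members in PEM (x axis) and SOL (y axis), with the dotted line marking equal changes. HSPH1 and DNAJA4 have the largest values in both muscles, and HSPB3 lies at 0.67 in PEM and -0.34 in SOL.

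Pairs of members were also compared from library to library inside the groups. Over the 24 libraries, after each group's mean was removed, the median Pearson correlation over 1953 pairs of members was 0.13. Over all pairs of the 10944 genes it was 0.09. A correlation above 0.8 was reached by 12 of the 1953 member pairs and by 0.149% of all gene pairs. The 7 chaperonin subunits, parts of one ring, had a median of 0.61, led by CCT4 with CCT2 (0.89) and CCT2 with CCT5 (0.85). HSPA8 went with its partner DNAJA1 (0.82) and with HSPH1 (0.81), and DNAJA4 with DNAJB1 (0.81). Pairs not described here as partners were as high. They were DNAJC18 with HSPD1 (0.83), BAG4 with HSPBAP1 (0.83) and with DNAJA3 (0.82), HSPD1 with HSPA4L (0.82), and DNAJB6 with DNAJC7 (0.82). At the other end were HSPA12A with DNAJA4 (-0.65) and DNAJC17 with DNAJB1 (-0.65). The libraries share a normalization and, in unknown number, hens, so these correlations are given without a test.

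Other folding genes were read from lists of HSP90 chaperones and co-chaperones, heat shock factors, prefoldin, endoplasmic reticulum enzymes and mitochondrial proteases, none of which the name rule takes. Under CONT 25 of the 66 such genes that could be tested were called higher in SOL and 10 lower, which is 37.9% and 15.2% beside 30.7% and 20% of all genes. CRYAB, the small heat shock protein alpha B-crystallin, averaged 382 ± 46.0 FPKM in SOL and 94.8 ± 26.1 FPKM in PEM (log2 fold change 2.03, limma adjusted p of 3.63e-06). Of the HSP90 genes TRAP1, the mitochondrial form, was higher in SOL by 0.64, and HSP90AB1, the constitutive cytosolic form, fell by 0.90. HSP90AA1, the inducible form, averaged 520 ± 138 FPKM in SOL and 522 ± 122 FPKM in PEM, and neither it nor HSP90B1 of the endoplasmic reticulum (log2 difference 0.79) nor the myosin chaperone UNC45B (-0.34) was called.

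In the 6 diet comparisons within a muscle, 3 of these 66 genes were called, all in PEM: 1 for SHFD against CONT (1.52% beside 1.07% of all genes) and 3 for LHFD against CONT (4.55% beside 6.94%). FKBP5, an HSP90 co-chaperone that glucocorticoids induce in mammals, measured 163, 288, 107 and 77.0 FPKM in LHFD and 30.3, 5.36, 53.4 and 50.4 FPKM in CONT. LHFD lay above CONT throughout, a rise of 2.37 (limma adjusted p of 0.0124), and SHFD gave 2.28 over the same CONT libraries (limma adjusted p of 0.048). The lowest CONT value, 5.36 FPKM, was that of library 2, which stood apart. In SOL FKBP5 averaged 115 ± 67.0 FPKM in LHFD and 24.2 ± 12.2 FPKM in CONT without a call (limma adjusted p of 0.0732). CLPX, the unfoldase of a mitochondrial protease, fell by 0.77 in LHFD PEM, and ERO1B, an oxidase of the endoplasmic reticulum, fell by 0.45. HSF1, the heat shock factor itself, averaged 15.2 to 18.6 FPKM over the 6 groups and was called in no comparison. HSP90AA1 averaged 932 ± 115 FPKM in SHFD SOL and 520 ± 138 FPKM in CONT SOL, without overlap and without a call (log2 difference 0.87, limma adjusted p of 0.103).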

How the data were processed

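Per the labels' protocols, the authors trimmed reads with fastp, mapped them to the chicken genome GRCg6a with HISAT2, quantified genes with StringTie v1.3.3b and deposited FPKM values, 1 per gene and library. Cufflinks is also listed in the submitters' processing notes. Because FPKM are relative to the whole library, abundant genes that rise push others down, and related genes can share reads. Counts were not used here, and low values gave no whole read steps, so depth is unknown.

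The test was limma 3.58.1 (R 4.3.3) with a variance trend on log2(FPKM + 1), fitting 6 group means to all 24 libraries with 18 residual degrees of freedom. Genes with 1 FPKM in at least 4 libraries were kept. All p-values are two-sided, adjusted by Benjamini-Hochberg over 10944 genes and called under 0.05, and fold changes of low genes are understated on this scale. The procedure was tested on simulated data. There were 11 comparisons: the muscles under each of 3 diets, every pair of diets in either muscle, and, for SHFD and LHFD, the SOL effect minus the PEM effect.

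The members and gene lists were chosen with earlier results of these data known. Named are members called between diets or else the 3 of smallest p, the 10 largest rises and falls called between muscles, the highest member of each role, members nearest the threshold, 7 fixed HSP90 and related genes, and other folding genes called between diets. CCT5, CCT7, HSPD1, HSPE1, HSPA5, BAG2 and other members named beyond these were chosen after their values were seen. HSP25 was also listed as a fixed gene, and no value of it is given here. Alternatives were quantile normalization, equal nuclear-encoded sums, a pseudocount of 0.1, no filter or one on the mean, only the compared groups in the fit, replicate blocks, 2 libraries left out together and each library left out in turn. Replicate numbers are the same across muscles, and both muscles came from the same hens, but the labels do not tie numbers to hens. Sequences and promoter motifs were not analysed here.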

Additional observations from a re-analysis of the deposited data

Results flagged for a closer look

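In the 84 groups of 4 values formed by the 14 members whose library values were given in full and the 6 muscle and diet groups, 3 groups had a library far from the other 3 by Dixon's ratio, and chance gives about 1 group in 20. DNAJB4 was 69.1 FPKM in PEM library 1 of LHFD, with 114 to 124 FPKM in the other 3. That library still lay above every CONT library. DNAJA4 was 582 FPKM in SOL library 1 of SHFD, with 185 to 195 FPKM in the other 3. The same library was the highest of its group for HSPH1, DNAJB4, BAG3 and HSPB8. HSPH1 was 10.0 FPKM in SOL library 1 of LHFD, with 22.5 to 25.1 FPKM in the other 3.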

How the results depend on the processing

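Over 1424 repeats of named gene results, 1317 kept direction and side of the threshold, 105 lost the call, 2 gained one and none reversed. Called members between muscles ranged over the single-library omissions from 26 to 32 under CONT, from 27 to 31 within SHFD and from 22 to 25 within LHFD. The same omissions gave 0 to 1 calls for SHFD against CONT in PEM, 2 to 6 for LHFD against CONT in PEM, 0 to 5 for SHFD against CONT in SOL and 0 to 3 for LHFD against SHFD in SOL, and 0 in the other 4 comparisons. Calls among all genes moved too. Between muscles they ranged from 5015 to 5976 under CONT, 5147 to 5435 within SHFD and 4123 to 4847 within LHFD. Against CONT they were 47 to 173 for SHFD and 393 to 953 for LHFD in PEM. In SOL they were 3 to 205 for SHFD against CONT and 35 to 199 for LHFD against SHFD. With only the compared groups in the fit, members called fell to 0 for LHFD against CONT in PEM, for SHFD against CONT in SOL and for LHFD against SHFD in SOL. With no expression filter they were 1 for SHFD against CONT in SOL and 0 for LHFD against SHFD in SOL. Without CONT_PEM 2 and LHFD_PEM 1 together they were 1 for SHFD against CONT in PEM, 5 for SHFD against CONT in SOL and 2 for LHFD against SHFD in SOL. The cause of these moves was not tested, beyond the fewer samples or the larger number of genes tested that the settings bring.

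Deviations of the PEM and SOL library with the same number correlated above 0.1 in 8 of 12 pairs, and 8 of 12 correlated best with their own number, including all 4 pairs of CONT (0.198 to 0.300) and all 4 of SHFD, but the LHFD pairs ran from -0.138 to 0.145. With the number as a replicate block the count for SHFD against CONT in SOL was 1, and a block by diet and number gave 30, 28 and 26 calls between muscles under CONT, SHFD and LHFD. The first ended the calls of DNAJB4 and HSPH1 there (adjusted p of 0.0611 and 0.0718), and the second those of HSPB8 under CONT (0.0733) and DNAJB12 within LHFD (0.0702). Depth is unknown, so the precision of values near 1 FPKM, such as those of HSPA13 and HSPB11, is known from the spread between libraries alone.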

Other observations

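Within LHFD in SOL and PEM the chaperonin subunits had lower means than within SHFD, with all 7 log2 differences negative in each muscle and no call. Their medians were -0.20 in SOL and -0.20 in PEM, beside medians of all genes of 0.07 in SOL and -0.06 in PEM. Against CONT the 7 subunits had a median of 0.13 in SHFD SOL and 0.14 in SHFD PEM, where 7 and 6 of them were positive. The medians of all genes there were -0.12 and -0.02. In LHFD against CONT the subunits had medians of -0.06 in SOL and -0.08 in PEM, as had all genes. The subunits varied together within groups (median correlation 0.61), so they are not 7 independent observations. These contrasts share the SHFD libraries within a muscle.

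The members' summed level was 9681 to 13612 FPKM in SHFD SOL and 6509 to 10386 FPKM in CONT SOL, and 5599 to 6599 FPKM in SHFD PEM and 4140 to 5345 FPKM in CONT PEM. The PEM ranges did not overlap and the SOL ranges did. HSPB1, HSPB7 and HSPB8, none of them called between these groups, make up most of the mean of each sum. The other 60 members summed to 3236 to 4490 FPKM in SHFD SOL and 2392 to 3216 FPKM in CONT SOL, and to 2674 to 3105 FPKM in SHFD PEM and 2282 to 2400 FPKM in CONT PEM. In LHFD the sum was 7592 to 10618 FPKM in SOL and 3982 to 6152 FPKM in PEM.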
